A study of Mus musculus with 6 samples.

Results

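MHC class II molecules carry peptides from the endosome to the cell surface, where T cells read them. Each molecule pairs an alpha and a beta chain, is escorted to the endosome by the invariant chain, and gains its peptide there after proteases have degraded both the antigen and the invariant chain. In B cells expression of this pathway depends largely on the transactivator CIITA. CIITA does not bind DNA itself but is recruited by factors that sit on shared promoter elements called the X and Y boxes. The list examined here held 10 mouse genes of this pathway: the classical chains H2-Aa, H2-Ab1 and H2-Eb1, the invariant chain Cd74, the peptide exchange factor H2-M (H2-DMa, H2-DMb1 and H2-DMb2), its inhibitor H2-O (H2-Oa and H2-Ob) and the transactivator Ciita. Members were matched to the array's probes by gene symbol or older synonym. Of the 10 genes, 3 had a named probe (1 each): H2-Aa, listed as H2Aa, Cd74, and Ciita, listed under its older symbol C2ta. The other 7 were not analysed here. These 3 genes stand among 16390 different gene symbols on the array.

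The cells were CH12F3-2A, a mouse B cell lymphoma line that switches its antibody class to IgA. They were electroporated with an siRNA against Spt6 (siSpt6, 3 samples) or a control siRNA (siControl, 3 samples), cultured for 24 h, and given CD40L, IL4 and TGFb (CIT) for another 24 h, so both groups were stimulated. All samples come from this single line, and the share of cells that took up siRNA is not in the labels used here. Spt6, encoded by Supt6, is a histone chaperone that accompanies RNA polymerase II, and the study asked how it bears on the sites that the deaminase AID targets. Cy5-labelled RNA of each sample was hybridised to a separate array, whose values are intensities in arbitrary units, and between 21526 and 22372 of 23473 probes had a value on an array.

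The target of the siRNA was lower in siSpt6 without passing the test: the Supt6 probe read 25.1, 21.8 and 28.1 in siSpt6, against 33.1, 32.1 and 32.1 in siControl (log2 change -0.38, SE 0.13, limma adjusted p = 0.0973). All 3 siSpt6 values lay below the siControl values, but the arrays alone give no call of a knockdown, and it was past the threshold only after cyclic loess normalization among 14 other settings (limma adjusted p = 0.0491). Log2 intensities of different arrays correlated across probes with r from 0.987 to 0.991 within a group and from 0.976 to 0.981 between groups. The labels give no separate cultures for the replicates, so p-values measure the spread among these arrays alone, and that spread may be technical. Changes below are siSpt6 minus siControl on the log2 scale, each is called at a limma p under 0.05 after Benjamini-Hochberg adjustment over all 21584 tested probes, and intensities of different probes are not compared as levels. By this rule 17.0% of 15224 genes changed, 7.40% higher and 9.65% lower in siSpt6.

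Of 8 tested markers of B cells 2 rose (Cd79b and Blk) and 1 fell (Cd22), against 7.40% and 9.65% of all genes. The intensities of the 8 summed to 19533 to 21188 per siSpt6 array and 14889 to 17685 per siControl array. Cd79b averaged 8455 ± 698 in siSpt6 and 5787 ± 707 in siControl (intensity ± SD, n = 3 each), and Ms4a1 averaged 4331 ± 639 in siSpt6 and 4087 ± 839 in siControl. The probe of Pax5, the B lineage factor, was near the array medians, at 38.4 ± 11.6 in siSpt6 and 39.4 ± 6.27 in siControl. The intensities of 6 T cell markers summed to 45.3 to 53.2 per siSpt6 array and 45.4 to 63.1 per siControl array. Those of 7 macrophage or monocyte markers summed to 273 to 352 in siSpt6 and 239 to 286 in siControl, most of it from Cd68, with 0 called in either list. Of 7 dendritic cell markers 2 rose and 1 fell, while their sum was 245 to 277 in siSpt6 and 265 to 282 in siControl. Flt3, a cytokine receptor of progenitors and dendritic cells, was below the array medians in both groups, at 13.2 ± 3.88 in siSpt6 and 2.74 ± 0.567 in siControl. Siglech, a surface lectin best known from plasmacytoid dendritic cells, averaged 134 ± 9.99 in siSpt6 and 36.3 ± 6.35 in siControl. Batf3, a transcription factor of some dendritic cells and of activated lymphocytes, averaged 70.7 ± 3.27 in siSpt6 and 190.7 ± 5.14 in siControl. The dendritic cell integrin Itgax was dim in both groups, at 6.29 ± 1.28 in siSpt6 and 5.12 ± 0.441 in siControl. Dendritic cells also use the class II pathway, but all samples came from a single B cell line. These markers are therefore given as transcripts in RNA of that line, and their part in the results below was not tested.

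Matches to letters of the X and Y boxes are shown for H2-Aa, the measured gene whose promoter window was searched here, beside members that had no named probe. RefSeq promoter windows (GRCm38.p6, 250 bases before to 50 after the transcription start) were used for 7 of the 10 members, 8 windows in all. The promoters of Cd74, Ciita and H2-Ab1 were not analysed here. The 8 windows were searched on both strands for GATTGG, letters of the Y box, and for CCNAGNNAC, letters of the X box. The motifs do not overlap. GATTGG was in 7 of the 8 windows and in windows of all 7 genes, and it is in 16.1% of 32851 promoter windows of all genes. CCNAGNNAC was in 5 of the 8, and it is in 17.3% of all windows. Windows with both motifs made up 2.90% of all windows and were found for 5 of the 7 genes. A match describes the letters only, and these sequences are those of the reference strain; class II genes vary between mouse strains. Whether the probes match the alleles of CH12F3-2A was not tested.

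The H2-Aa window lies at chr17:34287774-34288073 on the minus strand. It is printed whole, 5′ to 3′ along the gene, with matches to either motif in capitals:
H2-Aa: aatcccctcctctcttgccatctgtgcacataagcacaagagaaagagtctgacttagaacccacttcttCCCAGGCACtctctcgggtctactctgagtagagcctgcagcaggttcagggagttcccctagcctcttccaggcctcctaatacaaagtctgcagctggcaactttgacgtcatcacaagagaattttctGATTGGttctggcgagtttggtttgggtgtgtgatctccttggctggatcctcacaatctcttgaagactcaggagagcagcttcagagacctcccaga
Its Y box letters begin 49 bases before the start site, and the only match to the X box letters lies 131 bases further upstream. That is further than in H2-DMb1, H2-Oa and H2-Ob below, and whether this match is the X box of H2-Aa was not tested.

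H2-DMa is left out below, since its Y box letters begin 199 bases before the start site, further than in the members shown. H2-DMa had no match to the X box letters. For 5 other members without a named probe, 54 bases around the Y box letters are set side by side, each aligned on GATTGG and on the plus strand, with matches in capitals:
H2-Eb1 (chr17:34305763-34305816): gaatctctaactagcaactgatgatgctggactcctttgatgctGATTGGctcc
H2-DMb1 (chr17:34153085-34153138): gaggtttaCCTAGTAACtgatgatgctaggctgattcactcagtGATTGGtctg
H2-DMb2 (chr17:34145114-34145167): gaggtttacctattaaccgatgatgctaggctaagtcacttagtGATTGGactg
H2-Oa (chr17:34092291-34092344): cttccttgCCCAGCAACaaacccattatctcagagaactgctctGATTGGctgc
H2-Ob (chr17:34238803-34238856): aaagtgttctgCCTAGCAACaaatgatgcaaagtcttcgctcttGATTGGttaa
From the first X box letter to the first Y box letter there are 36 bases in H2-DMb1, 36 in H2-Oa and 33 in H2-Ob. In H2-DMb2 the match on the gene's strand lay 101 bases upstream of its Y box letters, outside the stretch shown. H2-Eb1 had no exact match in its window. Matches on the other strand, in H2-DMb1 and H2-DMb2, are not part of these distances. Only exact matches were counted, so near matches stay in small letters. A missing or distant match thus does not show where an X box lies or that it is absent.

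None of the 3 measured class II genes was called. In the deposited values H2-Aa and Cd74 were slightly lower and Ciita slightly higher in siSpt6, each by less than the test could tell from replicate spread, against 17.0% of all genes called; the direction of H2-Aa and Cd74 turned round under quantile normalization and cyclic loess. In RNA of whole cultures, fewer cells with a transcript and less of it per cell cannot be told apart. Limma gave 0 of 3 past the adjusted threshold and 0 of 3 at an unadjusted p under 0.05, and the median change of the 3 was -0.11, against -0.0019 over all 15224 genes.

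H2-Aa encodes the alpha chain of the classical class II molecule I-A. Its probe read 12933, 13627 and 13488 in siSpt6, against 14084, 13794 and 15310 in siControl. The siSpt6 values were close together and all lay below the siControl values, by a narrow margin, and siControl replicate 3 was the highest. The means were 13349 ± 367 in siSpt6 and 14396 ± 805 in siControl (intensity ± SD, n = 3 each). The log2 change was -0.11 (SE 0.11, limma adjusted p = 0.571), with a 95% interval from -0.37 to 0.15, which spans 0.775 to 1.11 times the siControl level.

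Cd74 encodes the invariant chain, which blocks the peptide groove until it is cut down in the endosome. Its probe read 15472, 18588 and 19174 in siSpt6, against 21270, 22068 and 19987 in siControl. The groups did not overlap, but siSpt6 replicate 1 stood well below the other two of its group, and siSpt6 replicate 3 nearly reached siControl replicate 3. The means were 17745 ± 1990 in siSpt6 and 21108 ± 1049 in siControl. The log2 change was -0.26 (SE 0.13, limma adjusted p = 0.245), with a 95% interval from -0.56 to 0.053, or 0.676 to 1.04 times the siControl level. Without siSpt6 replicate 1 the change was -0.16 (limma adjusted p = 0.496).

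Ciita encodes the transactivator itself. Its probe read 777, 685 and 741 in siSpt6, against 664, 662 and 710 in siControl. The groups overlapped, since siControl replicate 3 was above siSpt6 replicate 2. The means were 734 ± 46.6 in siSpt6 and 679 ± 27.3 in siControl (intensity ± SD, n = 3 each). The log2 change was 0.11 (SE 0.11, limma adjusted p = 0.563), with a 95% interval from -0.16 to 0.38, or 0.898 to 1.30 times the siControl level.

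**Figure D1:**
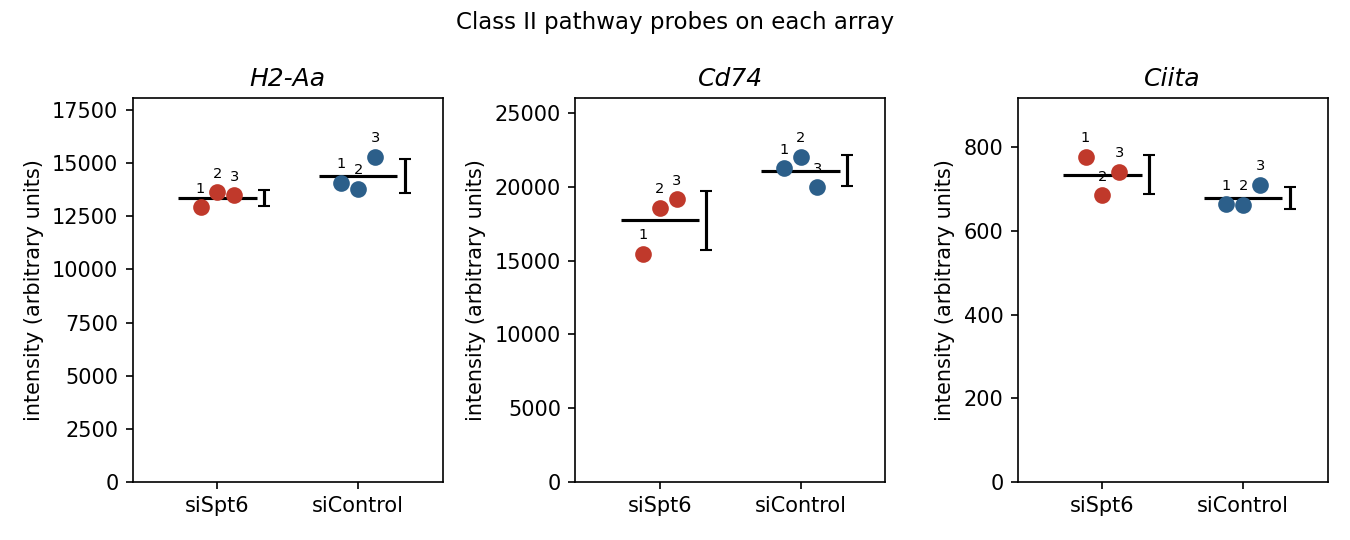
Intensity of the H2-Aa, Cd74 and Ciita probes on each array, in arbitrary units on axes that start at 0, with siSpt6 left and siControl right; points are arrays numbered by replicate, horizontal lines are means and bars are 1 SD (n = 3 each). The siSpt6 points of H2-Aa and Cd74 lie just below the siControl points in these deposited values, an order of means that turns round under quantile normalization and cyclic loess, and those of Ciita overlap them.

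The direction of H2-Aa and Cd74 depended on the scaling of the arrays, and bright probes as a whole read lower in siSpt6. Both probes were among the bright ones, with mean log2 intensities of 13.8 and 14.2. The 214 other probes within 1 log2 unit of H2-Aa had a median change of -0.38, and 85.0% of them were more negative than H2-Aa. The 153 probes around Cd74 had a median of -0.37, and 67.3% of them were more negative than Cd74. Around Ciita, at 9.46, the median of 2295 probes was -0.17, and 74.9% lay below its change. Each of the 3 genes thus had a change above the median of the probes of its own brightness.

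Quantile normalization and cyclic loess align the arrays over the range of brightness. H2-Aa then read 0.25 (SE 0.11, limma adjusted p = 0.196) and 0.28 (SE 0.12, limma adjusted p = 0.160), above siControl where the deposited values were below it. Cd74 turned round likewise, to 0.091 (limma adjusted p = 0.660) and 0.16 (limma adjusted p = 0.438). Ciita kept its direction and moved to 0.31 (limma adjusted p = 0.123) and 0.29 (limma adjusted p = 0.133). After cyclic loess the unadjusted p was 0.0476 for H2-Aa and 0.0358 for Ciita, and after quantile normalization it was 0.0302 for Ciita. The trended robust fit of the deposited values gave Cd74, at -0.26, a limma unadjusted p of 0.0354. The median over all genes moved only to 0.029 after quantile normalization and to -0.0040 after cyclic loess. Over all probes, 45.5% of calls were rises in the deposited values, 57.3% after quantile normalization and 53.6% after cyclic loess. Neither scaling is known to be the right one, so no direction is given for H2-Aa or Cd74.

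**Figure D2:**
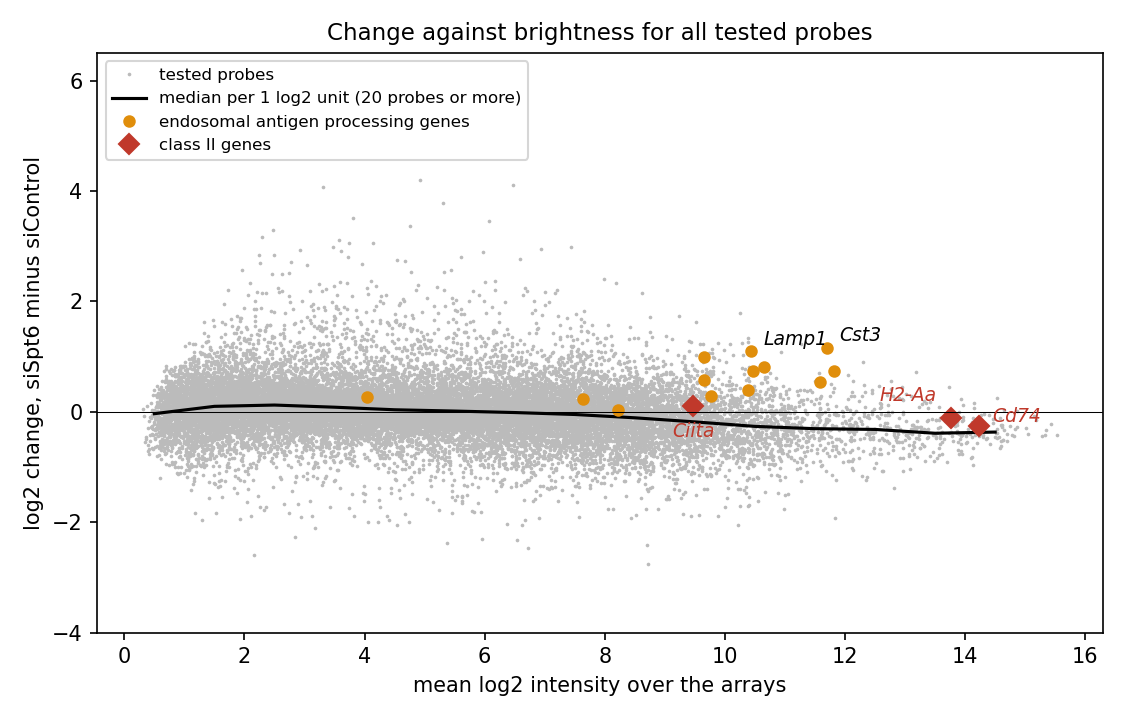
Log2 change (siSpt6 minus siControl) against mean log2 intensity for the tested probes (grey), with the median in bins of 1 log2 unit that hold at least 20 probes (black line), the 3 class II genes (red diamonds) and the endosomal processing genes (orange). The line falls towards the bright end, and H2-Aa, Cd74 and Ciita lie above it.

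**Figure D3:**
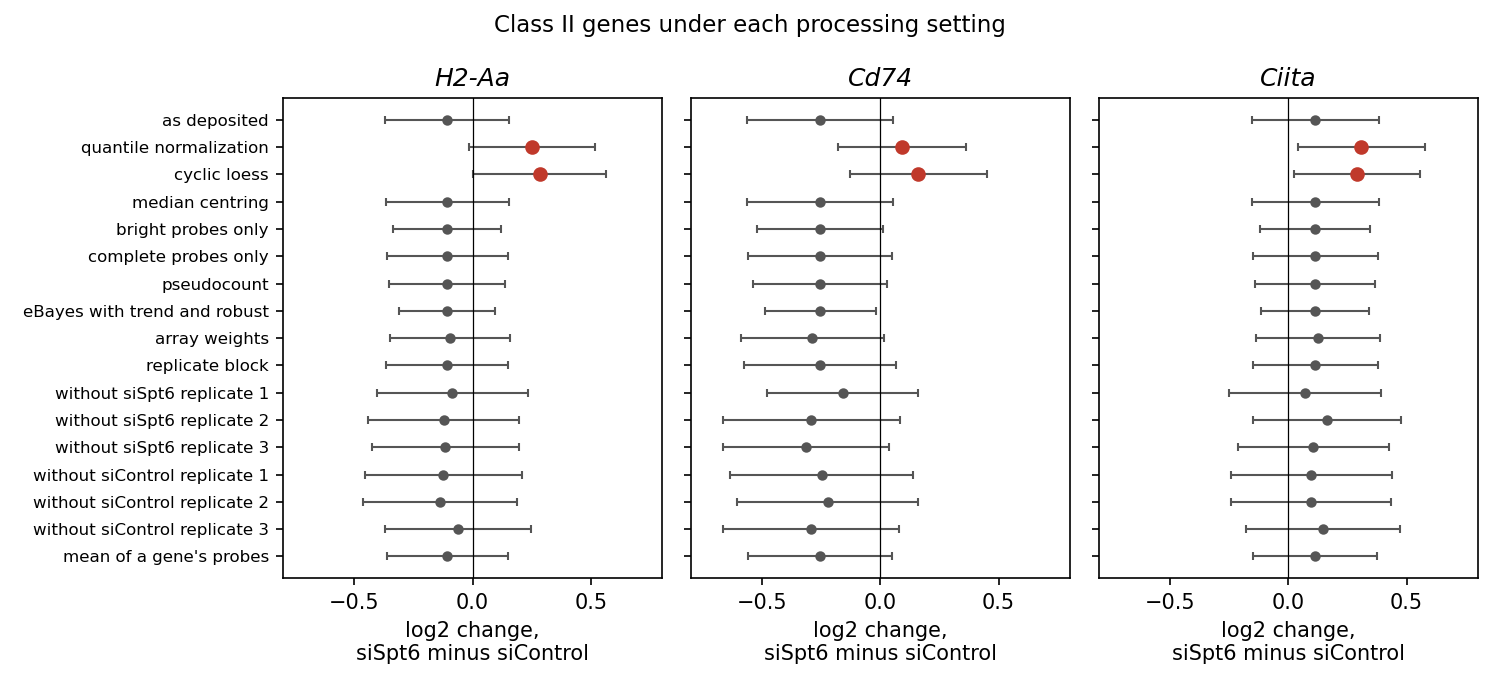
Log2 change of H2-Aa, Cd74 and Ciita (siSpt6 minus siControl, points) with 95% intervals (bars) in the deposited values and under each other setting, quantile normalization and cyclic loess in red. H2-Aa and Cd74 lie left of 0 under all settings drawn but those 2, and Ciita lies right of 0 under all of them.

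A ratio within an array does not depend on a scaling factor shared by all probes. The log2 ratio of the Cd74 to the Ciita probe was 4.31, 4.76 and 4.69 on the siSpt6 arrays, against 5.00, 5.06 and 4.81 on the siControl arrays. It was lower on every siSpt6 array, by 0.37 on average (two-sided exact permutation test, p = 0.1, adjusted p = 0.15 over 3 pairs). The H2-Aa to Ciita ratio was also lower on every siSpt6 array, at 4.06, 4.31 and 4.19, against 4.41, 4.38 and 4.43 in siControl, a difference of -0.22 (exact permutation p = 0.1, adjusted p = 0.15). The H2-Aa to Cd74 ratio overlapped between groups and differed by 0.15 (exact permutation p = 0.3, adjusted p = 0.3). With 3 arrays against 3 the smallest p is 0.1, so no pair could pass 0.05. Ciita is the dimmest of the 3 probes, and the differences shrank under the scalings that align arrays over brightness. Against -0.22 as deposited, the H2-Aa to Ciita difference was -0.058 after quantile normalization and -0.0080 after cyclic loess, and the Cd74 to Ciita difference was -0.22 and -0.13, against -0.37.

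The genes whose profile over the 6 arrays was closest to that of Ciita, by root mean square difference of centred log2 values among 13859 genes, were Clta, a clathrin light chain (0.025), Tmem183a (0.031), Akap9 (0.033), Anapc16 (0.034) and Gimap6 (0.035). Genes without a value on all 6 arrays, and names like those of predicted genes or clones, were left out of the comparison. That filter on names also dropped some known genes, such as B2m. In these deposited values H2-Aa came at rank 1563 (0.13) and Cd74 at rank 6428 (0.24). Both probes are brighter than that of Ciita, and ranks under the scalings that align arrays over brightness were not computed. The log2 changes of the closest 5 lay between 0.080 and 0.16, and all profiles share the same 6 arrays.

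Of 16 tested genes that act on the promoters of the class II genes and of Ciita, 0 rose and 1 fell. Over all genes 7.40% rose and 9.65% fell, and the median change of the 16 was 0.082. The faller was Nfyb, a subunit of the NF-Y complex that binds the Y box. It read 236, 245 and 232 in siSpt6, against 361, 373 and 383 in siControl, so the groups were far apart relative to their spread. The change was -0.65 (SE 0.11, limma adjusted p = 0.00878), 1.57-fold lower, and it stayed past the threshold under all 15 other settings. The other NF-Y subunits were not called, with changes of -0.42 for Nfya and 0.25 for Nfyc. Of the X box complex RFX, Rfx5, Rfxank and Rfxap had changes of -0.063, 0.011 and 0.23, not past the test. Rfxap and Spi1, which encodes the lymphoid and myeloid factor PU.1, were not called as deposited (limma adjusted p = 0.267 and 0.0777). They counted as rises once the arrays were quantile-normalized (limma adjusted p = 0.0366 and 0.0361) or aligned by cyclic loess (0.0397 and 0.0367). Irf4 and Irf8, lymphoid regulators, had changes of 0.053 and -0.11, and Prdm1, which represses Ciita in plasma cells, had 0.21. These were not called. The Prdm1 probe read at most 11.1 on any array, far below the array medians, and was not shown to be above background.

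Of 14 listed genes of endosomal antigen processing 13 were tested: 7 rose, 0 fell and 6 were not called, against 7.40% of all genes rising. The count of rises was 5 without siSpt6 replicate 2 or siControl replicate 2. The median change was 0.57, against -0.0019 over all genes. The list holds proteases, an inhibitor of proteases, a reductase and membrane proteins. The list was chosen with earlier results of these data known, so its count of rises against the share over all genes is descriptive and no test. The difference between this list and the 3 class II genes was not tested.

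Ctss encodes cathepsin S, the protease that makes the late cut of the invariant chain in B cells. It read 2275, 2048 and 2088 in siSpt6, against 1367, 1146 and 1156 in siControl. Every siSpt6 array was far above every siControl array (1.75-fold, log2 change 0.81, SE 0.13, limma adjusted p = 0.00753). Lgmn, an endopeptidase that cuts after asparagine, read 1160, 1005 and 1228 in siSpt6, against 637, 573 and 502 in siControl (1.98-fold, limma adjusted p = 0.00609). Ifi30, a thiol reductase that opens disulfide bonds of antigens, read 4594, 4585 and 4871 in siSpt6, against 2642, 2744 and 3019 in siControl. No array of one group came near those of the other, and the rise was 1.67-fold (limma adjusted p = 0.00726).

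Cst3, which encodes cystatin C, a secreted inhibitor of cathepsins S, B and related enzymes, had the largest change of the list. It read 4781, 4735 and 5453 in siSpt6, against 2061, 2266 and 2346 in siControl (2.24-fold, log2 change 1.16, SE 0.12, limma adjusted p = 0.00214). Lamp1, a glycoprotein of the lysosomal membrane, averaged 2031 ± 185 in siSpt6 and 944 ± 58.4 in siControl, a 2.15-fold rise (limma adjusted p = 0.00261). Cst3 and Lamp1 were named by rule as the rises with the smallest adjusted p; Ctss, Lgmn, Ifi30, Ctsd and Ctsb were named after their values were seen.

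Ctsd, the aspartic protease cathepsin D, averaged 1825 ± 102 in siSpt6 and 1107 ± 195 in siControl (1.66-fold, limma adjusted p = 0.0203). Its call was lost without siSpt6 replicate 1 or 2 (limma adjusted p = 0.0638 and 0.0598) and without siControl replicate 1 or 2 (0.0665 and 0.0650). Ctsb, cathepsin B, averaged 989 ± 106 in siSpt6 and 667 ± 76.9 in siControl (1.48-fold, limma adjusted p = 0.0388), and its call was lost without siSpt6 replicate 2 or 3 (limma adjusted p = 0.110 and 0.0909) and without siControl replicate 2 or 3 (0.106 and 0.103). With the replicate number as a block Ctsb also missed the threshold (limma adjusted p = 0.0759). The members not called had changes from 0.032 (Lamp2) to 0.53 (Ctsh). Sppl2a, the intramembrane protease that clears the last piece of the invariant chain in B cells, read 269, 265 and 142 in siSpt6, against 213, 229 and 126 in siControl, so replicate 3 was low in both groups and the groups overlapped (log2 change 0.24, limma adjusted p = 0.683). Quantile normalization and cyclic loess called 9 of the 13 as rises, adding Ctsh and Ctsc, where 8.68% and 8.51% of all genes rose.

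**Figure D4:**
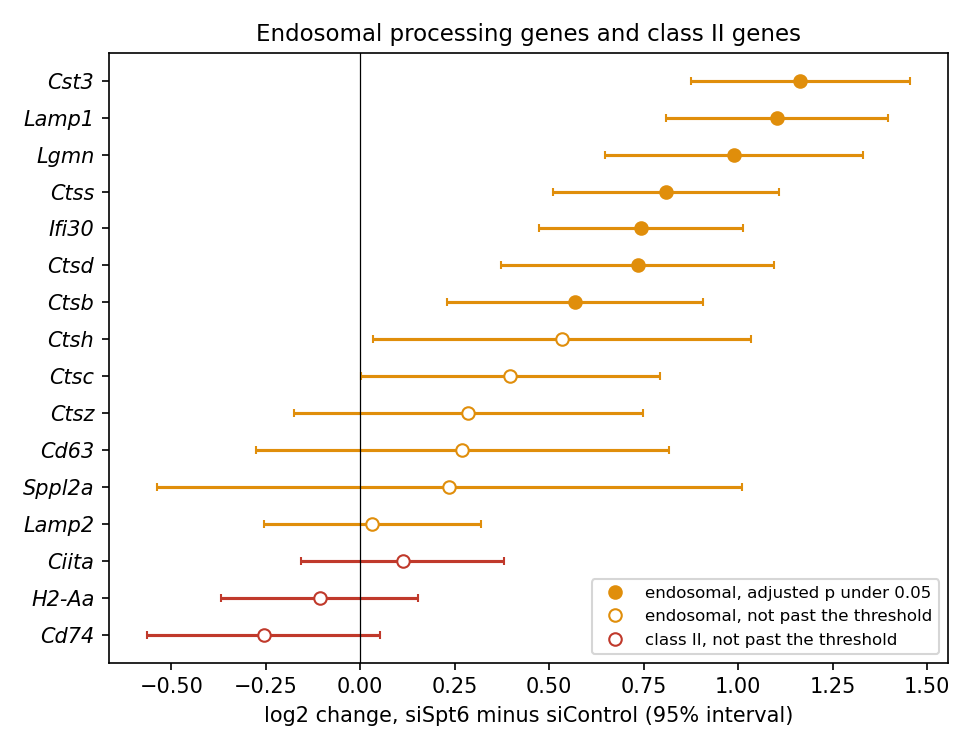
Log2 change (siSpt6 minus siControl) with its 95% interval for 13 endosomal processing genes (orange) and the 3 class II genes (red); filled points passed the adjusted threshold of 0.05 and open points did not. The intervals of the 7 filled endosomal genes lie right of 0, as do those of Ctsh and Ctsc, with lower ends near 0. Those of Ciita, H2-Aa and Cd74 include 0 in these deposited values. After cyclic loess the intervals of H2-Aa and Ciita lay above 0 as well.

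Partners of class II at the cell surface were represented by 4 tested genes. Of these 0 rose and 1 fell, against 7.40% and 9.65% of all genes. Cd82, a tetraspanin found with class II molecules in endosomes, averaged 552 ± 19.0 in siSpt6 and 984 ± 122 in siControl (1.77-fold lower, limma adjusted p = 0.00795). Cd83, which protects surface class II from ubiquitination, had a change of -0.15, and Cd81 and Cd37 had 0.031 and 0.054, not past the test. The list's median was -0.060 as deposited and 0.16 after quantile normalization.

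The class I pathway presents peptides of the cytosol. Of its 18 listed genes 14 were tested, without the heavy chains H2-K1, H2-D1 and H2-T23. Of these 14 genes 0 rose and 1 fell, against 7.40% and 9.65% of all genes. The median change of the 14 was -0.19 as deposited, -0.013 in quantile-normalized values and -0.047 by cyclic loess, where 1 gene rose and 0 fell. Psmb10, a catalytic subunit of the immunoproteasome, averaged 455 ± 83.5 in siSpt6 and 742 ± 77.1 in siControl (1.65-fold lower, limma adjusted p = 0.0341). The call did not survive quantile normalization (limma adjusted p of 0.0727) or cyclic loess (0.0673). Leaving out siSpt6 replicate 3 kept it, and leaving out each of the other 5 arrays lost it, with a limma adjusted p of at most 0.0977, reached by leaving out siControl replicate 2. B2m, the light chain that all class I molecules share, read 10274, 10722 and 10501 in siSpt6, against 10076, 8841 and 9786 in siControl. It was not called as deposited (log2 change 0.14, limma adjusted p = 0.476), but counted as a rise in quantile-normalized values (0.50 on the log2 scale, limma adjusted p = 0.0298) and by cyclic loess (0.50, limma adjusted p = 0.0299).

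Of 11 tested co-stimulatory genes that B cells use with T cells, 1 rose and 2 fell, against 7.40% and 9.65% of all genes. The median change of the 11 was -0.10 as deposited, -0.0024 in quantile-normalized values and -0.014 by cyclic loess. Cd72, a B cell co-receptor, was not called as deposited (limma adjusted p = 0.0868) but counted as a further rise under both (0.0417 and 0.0365). Cd274, which encodes the inhibitory ligand PD-L1, averaged 100.5 ± 19.9 in siSpt6 and 53.6 ± 5.71 in siControl (1.86-fold, limma adjusted p = 0.0174), a call lost when siSpt6 replicate 1 (limma adjusted p = 0.0518) or siControl replicate 1 (0.0564) was left out. Tnfsf9, the ligand 4-1BBL, averaged 179 ± 5.60 in siSpt6 and 350 ± 30.3 in siControl (1.95-fold lower, limma adjusted p = 0.00354). Icosl, the ligand of ICOS, was very dim and not shown to be above background, so no fold is given; it averaged 5.59 ± 1.47 in siSpt6 and 10.6 ± 0.527 in siControl (limma adjusted p = 0.0193), and its call was lost without siSpt6 replicate 1, siControl replicate 1 or siControl replicate 3 (limma adjusted p up to 0.0602). Cd40, the receptor of the CD40L in CIT, averaged 860 ± 60.6 in siSpt6 and 996 ± 38.1 in siControl, and Cd86 averaged 354 ± 79.7 in siSpt6 and 376 ± 47.1 in siControl, neither past the test.

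Among 14 tested genes of B cell identity 3 rose and 2 fell, against 7.40% and 9.65% of all genes. The median change of the 14 was 0.24 as deposited and 0.40 under both other scalings. Blnk, an adaptor of the B cell receptor, was a further rise by cyclic loess (limma adjusted p = 0.0477). Fcmr, the Fc receptor for IgM, averaged 52.8 ± 18.8 in siSpt6 and 15.3 ± 3.08 in siControl (3.36-fold, limma adjusted p = 0.00878). Its siControl values of 11.7, 16.8 and 17.3 lay below the array medians. The probe was too dim for the filter on dim probes, so this fold is uncertain. Fcer2a, which encodes CD23, an IgE receptor induced by IL4, averaged 33.3 ± 6.82 in siSpt6 and 115 ± 5.60 in siControl (3.50-fold lower, limma adjusted p = 0.00156). Blk (limma adjusted p = 0.0393), Cd79b (0.0391) and Cd22 (0.0281, lower) each lost the call without any 1 of 5 arrays, with limma adjusted p up to 0.107, 0.104 and 0.0830; the arrays that kept it were siSpt6 replicate 2, siControl replicate 2 and siControl replicate 1 in turn. With the replicate number as a block Cd79b was not called either (limma adjusted p = 0.0769). Genes of plasma cells, in which the class II pathway is normally silent, held 0 rises and 1 fall among 9 tested. The shares over all genes were 7.40% and 9.65%. The median change of the 9 was 0.0026, which is the change of the dim Tnfrsf17 probe. The probes of Prdm1, Sdc1, Tnfrsf17, Creb3l2 and Derl3 read at most 11.1 on any array, far below the array medians. These probes were not shown to be above background, so the list does not show that plasma cell genes as a set were unchanged. The faller, Xbp1, a factor of antibody secretion, averaged 1131 ± 85.9 in siSpt6 and 1556 ± 121 in siControl (1.38-fold lower, limma adjusted p = 0.0481), and lost its call when any 1 of the 6 arrays was left out (limma adjusted p up to 0.132), in quantile-normalized values (0.357) and by cyclic loess (0.252).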

How the data were processed

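The authors deposited 1 linear intensity, in arbitrary units, for each probe of an array. Per the labels' protocols, total RNA was amplified, labelled with Cy5 and hybridised to 1-colour arrays. Their steps for background and scale, not given in the sources used here, could shift bright against dim probes. Array medians agreed to within 0.0011 log2 units, and 4.69% to 8.29% of the probes of an array had no value. Of 23473 probes, 16631 carried 1 gene symbol and 6842 none; older symbols were updated through the reference gene table.

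Log2 intensities were compared, siSpt6 minus siControl, with limma 3.58.1 in R 4.3.3 (lmFit and eBayes, no pseudocount) for 21584 probes with at least 2 values per group, with Benjamini-Hochberg adjustment over all of them, and the procedure was tested on simulated data. A gene was represented by its brightest probe. Ratios between members were compared by exact permutation of the 6 arrays. Alternatives were quantile normalization, cyclic loess, median centring, a filter on dim probes, complete probes, a pseudocount, a trended robust fit, weights per array, a block for the replicate number, the mean of a gene's probes, and leaving out each array.

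The members and gene lists were chosen with earlier results of these data known. By rule all members, Supt6, up to 2 rises and 2 falls of each list with the smallest adjusted p, and the 5 profiles closest to Ciita were named; other genes were named after their values were seen. The number of arrays limits the precision.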

Additional observations from a re-analysis of the deposited data

How the results depend on the processing

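The deposited values put H2-Aa and Cd74 lower in siSpt6. After quantile normalization their log2 changes were 0.25 and 0.091, and after cyclic loess 0.28 and 0.16; both methods align arrays over the range of brightness, and the cause was not tested. These were the 4 reversals among 48 values of the 3 members under other settings, and 0 of the 48 passed the limma threshold. Leaving out 1 array gave log2 changes from -0.14 to -0.063 for H2-Aa, from -0.31 to -0.16 for Cd74 and from 0.071 to 0.16 for Ciita. Supt6 passed the threshold after cyclic loess, at -0.42, and was too dim for the filter on dim probes. Of the called genes of the lists, Fcmr, Flt3 and Icosl were also too dim for it. The number of probes called was 3525, and between 2099 and 2522 without 1 array. The endosomal count was 7, and 5 to 6 without 1 array; its settings, those of the 22 called genes of the lists and the scalings of the ratios between members were chosen after seeing the data. These 22 genes kept the call in 282 of 327 values and lost it in 45, with 0 reversals, and 13 of them kept it under every setting that was run. Samples with the same replicate number deviated together with r = 0.351, 0.0759 and 0.262 for numbers 1, 2 and 3, against -0.292 to 0.0159 for different numbers, so each sample correlated best with its own number, a hint from the data and not from the design. With the replicate number as a block 3594 probes were called, and the changes of H2-Aa, Cd74 and Ciita were again -0.11, -0.26 and 0.11, not past the threshold.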
